A study of Mus musculus with 8 samples.

Results

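Complement is a cascade of blood and tissue proteins that marks surfaces for removal, and its classical pathway opens with the products of the 8 mouse genes described here: C1qa, C1qb, C1qc, C1ra, C1s1, C4b, C2 and C3. The C1q chains form the recognition subunit, the C1r and C1s proteases bound to it become active on contact with a target, and these cleave C4 and C2. The fragments of C4 and C2 form the convertase that splits C3, the step on which the classical, lectin and alternative routes meet. In the brain, microglia are known as the main source of C1q, astrocytes are known to make C3 and C4, and C1q and C3 fragments are known to mark synapses that microglia then take up.

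The genes were listed by name, as the classical components from C1 to C3, at a time when earlier results of these data were known. They were 8 of the 19751 genes with a probe that could be named, and 10 of 39429 probes on the array measured them, with 1 probe each except for C3 and C1ra, which had 2 each. RNA came from the full hippocampus, dissected by hand, of wild-type C57BL/6J mice that had received no treatment and had aged in the home cage. A group of 4 samples at 3 months of age (3M) was compared with a group of 4 at 29 months (29M), each sample on 1 Cy3 array, to ask how the hippocampal transcriptome differs between young adulthood and the end of the life span. The labels do not say that each sample is a separate animal, so that p-values measure the spread between these samples. In a tissue extract, more cells of a type and more RNA per cell cannot be told apart.

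Between 76.2% and 85.0% of spots lay well above background on an array, no spot was saturated, and the arrays correlated with r from 0.991 to 0.998 across probes. Both groups were present on each of the 3 slides used. Replicate 1 of 3M was the array with the lowest share of spots above background and the only one that the extraction software marked for evaluation. All 12 neuronal markers and all 10 markers of hippocampal neurons were well above background on all 8 arrays. Values are given as normalized intensities on a generalized log2 scale, on which a step of 1 is a doubling for a bright spot. The scale ranks samples for 1 probe and does not rank different genes. A call needed 2 things in limma's test, an adjusted p under 0.1 (Benjamini-Hochberg over 39408 probes) and a log2 change of 0.5 or more in size, equal to 1.41-fold.

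The stretch just upstream of a gene is where many of the factors that set its RNA level bind, and 3 promoters are shown first, that of C3, 1 of the 2 genes with the largest changes, and those of C1qb and C1qc, which changed less. RefSeq windows of GRCm38.p6 could be matched for 5 of the 8 genes, namely C1qb, C1qc, C1ra, C1s1 and C3. Each window below holds the 250 bases before the annotated start, 5' to 3' on the strand of the gene. The C3 window lies at chr17:57228137-57228386 on the minus strand. That of C1qb lies at chr4:136886201-136886450 and that of C1qc at chr4:136892915-136893164, both on the minus strand. Capitals mark matches to the letter patterns searched on both strands.
C3: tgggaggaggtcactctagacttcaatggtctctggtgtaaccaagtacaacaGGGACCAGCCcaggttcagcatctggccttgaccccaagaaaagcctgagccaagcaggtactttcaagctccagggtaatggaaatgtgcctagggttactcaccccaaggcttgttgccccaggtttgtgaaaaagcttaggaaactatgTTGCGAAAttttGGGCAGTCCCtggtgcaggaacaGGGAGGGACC
C1qb: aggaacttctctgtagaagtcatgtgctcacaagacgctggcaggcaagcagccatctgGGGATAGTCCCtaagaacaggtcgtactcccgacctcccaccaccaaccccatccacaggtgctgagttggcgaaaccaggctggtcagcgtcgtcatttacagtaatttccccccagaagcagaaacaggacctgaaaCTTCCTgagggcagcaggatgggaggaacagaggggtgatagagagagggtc
C1qc: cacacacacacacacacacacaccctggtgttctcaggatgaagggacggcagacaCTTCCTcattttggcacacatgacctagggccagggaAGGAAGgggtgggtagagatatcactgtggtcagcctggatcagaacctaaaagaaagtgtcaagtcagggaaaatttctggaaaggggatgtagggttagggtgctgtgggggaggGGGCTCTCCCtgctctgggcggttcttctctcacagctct

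In these windows the capitals of C3 mark 3 matches to the NF-kappaB pattern (GGGA and CC with 4 free bases between), and 1 match to TTGCNNAA, a pattern of C/EBP sites, which runs from base -45 to base -38 before the start. The first capital run of C1qb holds 2 overlapping NF-kappaB matches, 1 on each strand, and the second is AGGAAG on the reverse strand, a pattern of PU.1, a factor of microglia and macrophages. C1qc held AGGAAG once on each strand and the NF-kappaB pattern once. Among the 5 windows, 3 held AGGAAG, against 29.5% of all 32851 windows of that length, 3 held the NF-kappaB pattern, against 17.6%, and 2 held TTGCNNAA (C3 and C1s1), against 9.56%. The patterns TTCNNNGAA (STAT), GAAA repeated with 2 free bases between (IRF) and TGANTCA (AP-1) were in 0 of the 5 and in 7.02%, 2.98% and 6.75% of all windows. The windows shown are those that held the NF-kappaB pattern. Of those not shown, C1s1 held AGGAAG and TTGCNNAA, and C1ra held none of the patterns searched. A match of letters is not a measured binding site.

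With age the 8 genes moved one way. In 29M, 7 of them rose past both thresholds, where 1.58% of all 19742 genes tested did, and none was called lower, where 0.689% of all genes were. The count was 3 (C1qa, C3 and C4b) without any one of replicates 2, 3 and 4 of 3M or replicates 1 and 2 of 29M, 4 without replicate 3 of 29M, 7 when replicate 1 of 3M or replicate 4 of 29M was left out, and 3 at an adjusted p under 0.05. Counted by probe, 9 of the 10 rose, against 1.25% of all probes, and 0.809% of all probes fell. C1qc was the gene that was not called, since its change of 0.47 lay just under the size threshold, at an adjusted p of 0.0533. For each of the 10 probes all 4 arrays of 29M lay above all 4 of 3M, a separation that 5.52% of all probes and 6.34% of genes showed. The median log2 change over the 8 genes was 0.74, with a range from 0.47 to 2.34, and the median over all genes was 0.012. All 10 probes were well above background on all 8 arrays.

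**Figure D1:**
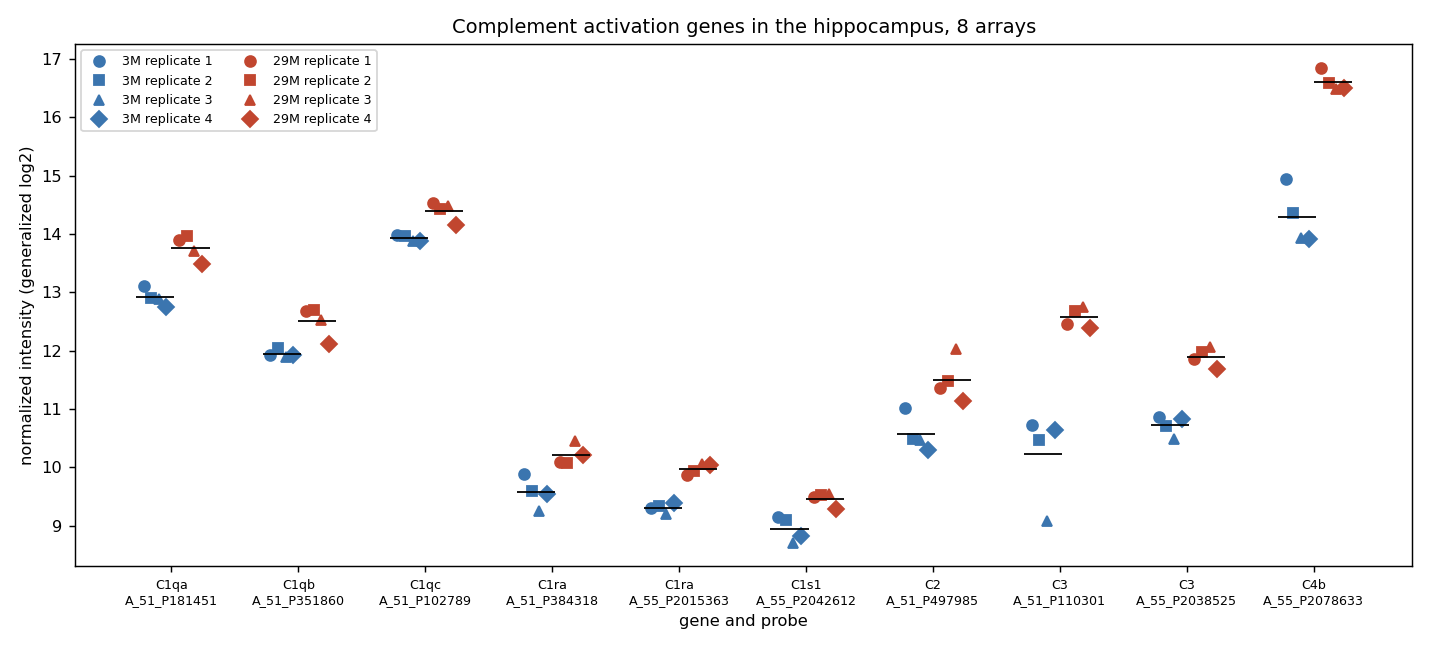
Normalized intensity (generalized log2) of the 10 probes of the complement activation genes on each array, with 3M in blue and 29M in red, 1 symbol per replicate number and a black line at the mean of each group of 4. For each probe the 29M arrays lie above the 3M arrays, with the widest gaps for C4b and for C3 probe A_51_P110301, where replicate 3 of 3M lies far below the other 3M arrays at 9.08.

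C4b encodes complement component 4, which the C1s protease cleaves and whose larger fragment binds covalently to the target. Its probe read 14.95, 14.35, 13.93 and 13.91 in replicates 1 to 4 of 3M, and 16.85, 16.58, 16.48 and 16.49 in those of 29M. The lowest 29M array therefore lay 1.54 above the highest 3M array, and the groups were far apart relative to their spread. The means were 14.28 ± 0.49 and 16.60 ± 0.17 (SD, n = 4 each), a log2 change of 2.32 (SE 0.22, 95% interval 1.83 to 2.80, adjusted p = 0.00240) or 4.98-fold. In the order of log2 changes over all 39408 probes it stood in place 8. Mouse C4b has a near-identical neighbour, C4a, that had no named probe, and since the probe sequences were not used here the signal cannot be assigned to one of the pair with certainty.

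C3 encodes the central component that the convertases split. It was measured by 2 probes, of which A_51_P110301 had 10 spots on each array and the higher mean. This probe read 10.73, 10.47, 9.08 and 10.64 in replicates 1 to 4 of 3M, and 12.46, 12.67, 12.75 and 12.40 in those of 29M. Replicate 3 of 3M stood below the other 3M arrays, and the lowest 29M array lay 1.67 above the highest 3M array. The means were 10.23 ± 0.77 and 12.57 ± 0.17 (SD, n = 4 each), a log2 change of 2.34 (SE 0.32, 95% interval 1.62 to 3.06, adjusted p = 0.0111) or 5.07-fold, in place 7 of all probes.

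The second C3 probe, A_55_P2038525, read 10.87, 10.71, 10.48 and 10.83 in 3M and 11.86, 11.98, 12.07 and 11.69 in 29M. It rose by 1.17 on the log2 scale (SE 0.12, adjusted p = 0.00307) or 2.26-fold, so the probes gave the same direction and different sizes. The difference between the probes, first minus second, ran from -1.40 to -0.14 in 3M and from 0.60 to 0.71 in 29M. Which of the sizes is closer to that of the transcript was not tested. Replicate 3 of 3M was the lowest 3M array for both probes. On that array 7 of the 10 spots of A_51_P110301 entered the mean and read from 8.94 to 9.13, close to each other, against spot ranges from 10.14 to 10.93 on the other 3M arrays. Without that array the change of A_51_P110301 was 1.96 (adjusted p = 0.00188) and that of A_55_P2038525 was 1.09 (adjusted p = 0.00707).

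C2 encodes the protease subunit of the convertase that C4 fragments anchor. Its probe read 11.02, 10.49, 10.47 and 10.30 in 3M and 11.36, 11.47, 12.03 and 11.13 in 29M. Replicate 1 of 3M and replicate 4 of 29M came within 0.11 of each other, so the groups were separate by a narrow gap. The log2 change was 0.93 (SE 0.21, 95% interval 0.47 to 1.40, adjusted p = 0.0651), or 1.91-fold. The call of C2 was lost without any one of replicates 2, 3 and 4 of 3M or replicates 1 and 2 of 29M, at changes from 0.84 to 0.98 and adjusted p from 0.135 to 0.173.

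The C1q genes encode the A, B and C chains of the recognition subunit. C1qa read 13.11, 12.91, 12.88 and 12.75 in 3M and 13.90, 13.97, 13.71 and 13.49 in 29M. C1qb read 11.92, 12.04, 11.89 and 11.93 in 3M and 12.68, 12.69, 12.53 and 12.12 in 29M. C1qc, with 10 spots on each array, read 13.99, 13.97, 13.88 and 13.88 in 3M and 14.54, 14.43, 14.47 and 14.16 in 29M. In all 3 genes the 3M arrays lay close together and replicate 4 was the lowest 29M array, and for C1qb it cleared the highest 3M array by 0.08.

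C1qa rose by 0.86 on the log2 scale (SE 0.12, adjusted p = 0.0136), C1qb by 0.56 (SE 0.13, adjusted p = 0.0712) and C1qc was higher by 0.47 (SE 0.10, adjusted p = 0.0533). These are folds of 1.81, 1.47 and 1.38. C1qb lost its call without any one of replicates 2, 3 and 4 of 3M or replicates 1, 2 and 3 of 29M, at changes from 0.50 to 0.59 and adjusted p from 0.118 to 0.190. C1qc passed both thresholds without replicate 4 of 29M, at 0.55 (adjusted p = 0.0272). In C1qc the spots of 1 array had a pooled SD of 0.16, against an SD between the 3M arrays of 0.06 after averaging.

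C1ra and C1s1 encode the proteases of the C1 complex. The C1ra probe with the higher mean, A_51_P384318, read 9.89, 9.60, 9.26 and 9.55 in 3M and 10.09, 10.07, 10.45 and 10.21 in 29M. The other, A_55_P2015363, read 9.31, 9.33, 9.20 and 9.38 in 3M and 9.87, 9.94, 10.05 and 10.04 in 29M. The groups were separate for both probes, and the second had the smaller spread in 3M, 0.08 against 0.26 (SD, n = 4).

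C1ra rose by 0.63 on the log2 scale (SE 0.14, adjusted p = 0.0656) by the first probe and by 0.67 (SE 0.08, adjusted p = 0.00684) by the second. Leaving out any one array except replicate 1 of 3M ended the call of A_51_P384318, with adjusted p from 0.114 to 0.161 at changes from 0.53 to 0.67, while A_55_P2015363 was called without each array in turn, at 0.63 to 0.70. C1s1 read 9.15, 9.10, 8.71 and 8.83 in 3M and 9.50, 9.53, 9.54 and 9.28 in 29M. The groups were separate by 0.13, and the log2 change was 0.51 (SE 0.12, adjusted p = 0.0708), just past the size threshold. The call of C1s1 was lost without any one of replicates 2, 3 and 4 of 3M or replicates 1, 2 and 3 of 29M, at changes from 0.44 to 0.56 and adjusted p from 0.122 to 0.182.

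Changes were also taken within each slide, where arrays shared the glass they were hybridised on. Slide 1 held 1 array of 3M and 2 of 29M, slide 2 held 1 of each, and slide 3 held 2 and 1. All 29M arrays lay above all 3M arrays for each of the 10 probes. The direction within a slide was therefore fixed, and only the sizes could vary. The changes of C4b were 1.54, 2.23 and 2.93 on slides 1, 2 and 3. Those of C3 probe A_51_P110301 were 1.85, 2.20 and 2.60, and those of C1qa 0.50, 1.07 and 1.08. The lowest change on any slide was that of C1s1 on slide 1, 0.26. With slide as a block in the fit C1qa, C1qb, C1ra, C3 and C4b were called higher, 5 of the 8 genes against 1.17% of all genes, and C1qc (0.48, adjusted p = 0.110), C1s1 (0.48, adjusted p = 0.129) and C2 (0.83, adjusted p = 0.127) were not.

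**Figure D2:**
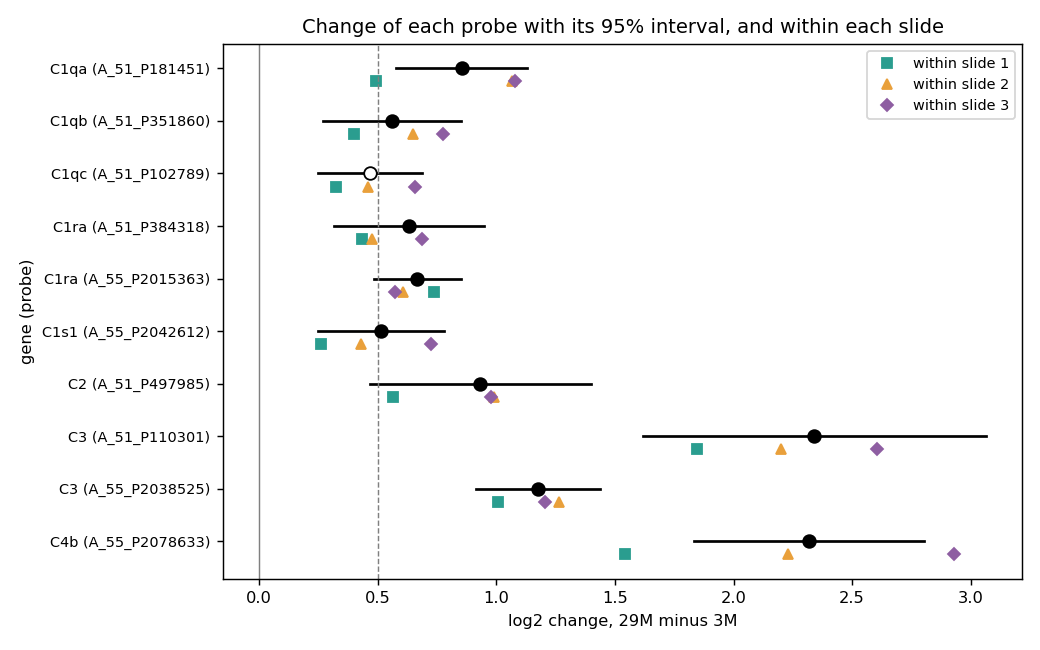
Log2 change from 3M to 29M of the 10 probes, with black circles and lines for the change and its 95% interval (filled where called, open for C1qc) and coloured symbols for the changes within slides 1, 2 and 3. The dashed line marks the size threshold of 0.5, and all intervals lie above 0. The within-slide values also lie above 0, as the separation of the groups requires.

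The sizes of the changes were compared between genes by 3 differences taken within each array, each tested with a two-sided exact permutation test over the 8 arrays, for which the smallest p is 0.0286. C4b minus the mean of C1qa, C1qb and C1qc was 1.94, 1.38, 1.04 and 1.06 in 3M and 3.14, 2.88, 2.91 and 3.24 in 29M. The C4b probe thus rose more than the C1q probes, by 1.69 on the log2 scale (exact p = 0.0286). After Benjamini-Hochberg adjustment over the 3 differences that p was 0.0429. C3 by probe A_51_P110301 minus the same mean was -2.28, -2.50, -3.80 and -2.22 in 3M and -1.24, -1.03, -0.82 and -0.86 in 29M. This C3 probe likewise rose more than the C1q probes, by 1.71 (exact p = 0.0286, adjusted 0.0429). With the mean of both C3 probes this was 1.13 (exact p = 0.0286). With A_51_P110301 it was 1.35 when replicate 3 of 3M was left out. By A_55_P2038525 alone C3 rose by 1.17, against 0.86, 0.56 and 0.47 for C1qa, C1qb and C1qc, and that difference was not tested. The changes of the 2 C3 probes themselves differed by 1.17, so a difference between probes is not by itself a difference between genes. The genes compared were listed with earlier results of these data known, and the study had named C4b among its most significant rises. The p-values of these differences are therefore not those of a contrast chosen blind to the data.

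C4b minus C3, by C3 probe A_51_P110301, overlapped between the groups. It was 4.22, 3.88, 4.84 and 3.27 in 3M and 4.38, 3.91, 3.73 and 4.10 in 29M. The difference between the groups was -0.024 (exact p = 0.971). It was 0.56 (exact p = 0.0857) with the mean of both C3 probes. Without replicate 3 of 3M it was 0.24, and without replicate 4 of 3M it was -0.28. An unequal change of C4b and C3 was thus not detectable by A_51_P110301 or by the mean of both probes, and equality was not shown. By A_55_P2038525 alone C3 rose by 1.17, less than the 2.32 of C4b, and that difference was not tested.

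**Figure D3:**
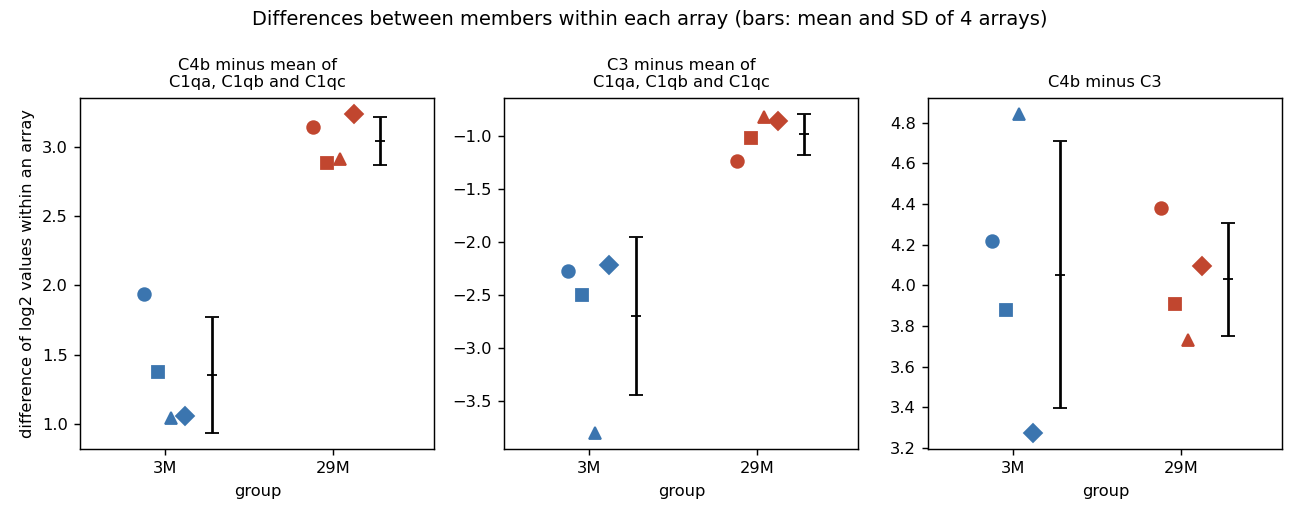
Differences of log2 values between genes within each array, with 3M in blue and 29M in red, 1 symbol per replicate number and the mean with its SD (n = 4) beside the points; each panel has its own vertical axis, which does not start at 0. With C3 read by probe A_51_P110301, C4b and C3 minus the mean of the C1q genes are separate between the groups, and C4b minus C3 overlaps.

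Replicate 1 of 3M was the highest 3M array for 7 of the 8 genes, and replicate 4 of 29M was the lowest 29M array for 6. Deviations from the group mean correlated with r = 0.77 between C1qa and C1qb, 0.78 between C1qa and C1qc and 0.89 between C1qb and C1qc. Both genes of a pair were read on the same 8 arrays. For C3 and C4b this r was 0.47. Over the pairs outside the C1q trio it ran from -0.10, between C1qb and C1ra, to 0.77, between C1s1 and C4b.

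The other genes of the pathway mostly were not called. Of 46 listed, 43 had a probe, 2 rose (4.65%) and 1 fell (2.33%), against 1.58% and 0.689% of all genes, and their median log2 change was 0.09. C1s2, a duplicate of C1s1, rose by 0.61 (SE 0.14, adjusted p = 0.0762), by the brighter of its 2 probes and not by the other. Leaving out any one array except replicate 1 of 3M ended that call, at changes from 0.50 to 0.67 and adjusted p from 0.102 to 0.201, and did not end those of Itgax and Masp2. Itgax, the alpha chain of complement receptor CR4, rose by 1.96 (SE 0.26, adjusted p = 0.0102), from 7.32 ± 0.35 to 9.27 ± 0.53 (SD, n = 4 each). Masp2, the lectin pathway protease that also cleaves C4 and C2, fell by 0.63 (SE 0.10, adjusted p = 0.0238), from 9.53 ± 0.14 to 8.91 ± 0.14. C4a, C7 and Csmd2 had no named probe.

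By role, 1 of 3 paralogs of C1 and C4 was called, 1 of 8 lectin pathway genes, 0 of 3 alternative pathway genes, 0 of 6 terminal pathway genes, 0 of 13 regulators and 1 of 10 receptors. In the alternative pathway Cfp changed by -0.49 (adjusted p = 0.0539), just under the size threshold, with all 29M arrays below all 3M arrays. Cfb changed by 0.91 (adjusted p = 0.125) and Cfd by -0.15 (adjusted p = 0.749). The summed level of these genes was 7070 to 7631 in 3M and 4716 to 6059 in 29M, without overlap. Cfp made up most of that sum, at 12.78 in 3M against 7.47 for Cfb and 5.84 for Cfd. The sum therefore mainly restates the change of Cfp. Cr1l, a membrane regulator that limits the convertases, was at 12.45 in both groups, with a log2 change of -0.0019 (adjusted p = 0.996). Among 9 relatives with a C1q domain outside the cascade, such as C1ql2 and Cbln1, 0 were called, with a median change of 0.06. Without replicate 1 of 3M the count of called pathway genes went from 3 to 8, and the added ones were Fcna (0.55), Cfb (1.20), Serping1 (0.72) and Itgb2 (0.90), which were higher, and Cfp (-0.52), which was lower. With log2 processed signals minus the 75th percentile it was 1.

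**Figure D4:**
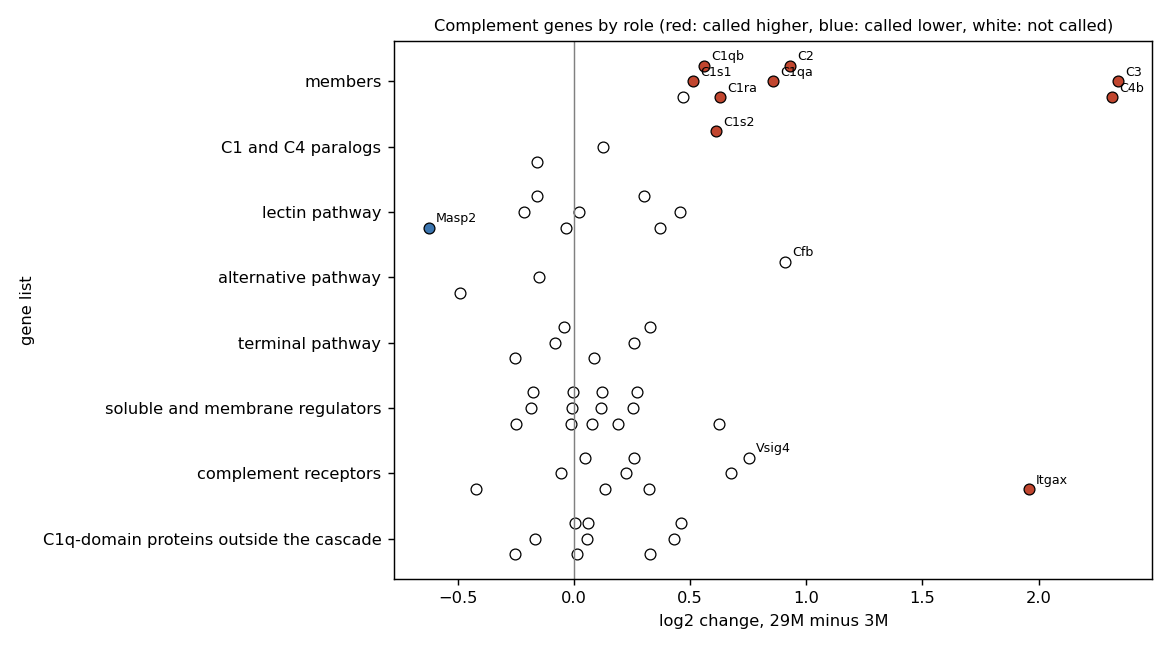
Log2 change from 3M to 29M of each complement gene with a probe, 1 circle per gene by its probe with the highest mean, grouped by role; red circles were called higher, blue called lower and white not called. The members occupy 0.47 to 2.34. Genes of other roles also lie in that range, namely C1s2 (0.61) and Itgax (1.96), called higher, and Serping1 (0.63), Itgb2 (0.68), Vsig4 (0.75) and Cfb (0.91), not called, and Masp2 lies at -0.63, called lower.

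Some markers of microglia were higher in 29M as well. All 16 microglial markers were well above background on all arrays, 14 of them had a change above 0 with a median of 0.32, and 3 were called higher: Ctss (0.83), Tyrobp (0.80) and Trem2 (0.65). Leaving out 1 array ended the call of Trem2 for replicates 2 and 3 of 3M and 1 and 2 of 29M (adjusted p from 0.106 to 0.135) and that of Tyrobp for replicate 2 of 3M (0.101) and replicate 1 of 29M (0.103). The summed level of the microglial list, on the linear scale, was 296057 to 325699 in 3M and 362769 to 392212 in 29M. The groups did not overlap, and the log2 ratio of means was 0.29. Siglech, with the highest value of the list (17.14 in 3M), weighed most in that sum and changed by 0.16 (adjusted p = 0.597). Aif1, which encodes the microglial protein Iba1, read 12.48 ± 0.62 and 12.82 ± 0.18 (SD, n = 4 each; log2 change 0.34, adjusted p = 0.563). The summed level of the 8 complement genes had a log2 ratio of 1.54, but C4b made up 34.0% to 48.0% of that sum in 3M and 62.4% to 67.9% in 29M. Without C4b, a choice made after seeing the data, the ratio was 0.74, from sums of 29419 to 34254 in 3M and 43657 to 55948 in 29M. The part of microglial content in the changes was not tested.

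Of 12 astrocyte markers 1 was called higher, Gfap (0.71, SE 0.12, adjusted p = 0.0235), the intermediate filament of reactive astrocytes, and the median change of the list was 0.15. The summed astrocyte level overlapped, at 523209 to 650703 in 3M and 562861 to 622769 in 29M. Markers of perivascular and blood macrophages gave 2 of 8 called higher, Cd209f (1.12, with overlapping groups) and Cbr2 (0.51), with summed levels of 4431 to 6420 in 3M and 5513 to 8398 in 29M. Cd209f was called only with all arrays or without replicate 1 of 3M or replicate 4 of 29M (otherwise adjusted p from 0.135 to 0.209), and Cbr2 was not called without any one of replicates 2, 3 and 4 of 3M or replicates 2 and 3 of 29M (changes from 0.45 to 0.52). T and B cell markers gave 2 of 10, Cd3d (0.96, from 6.29 to 7.24) and Cd8a (0.71, from 6.21 to 6.91). Both were called without each array in turn. The summed levels of this list overlapped, but Cd4 (14.22 in 3M, change -0.02) made up most of them.

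None of the markers of neurons, hippocampal neurons, oligodendrocytes, endothelial cells, choroid plexus, meninges and fibroblasts, red blood cells and hepatocytes was called by the probe with the highest mean. A dimmer probe of the oligodendrocyte marker Ermn was called higher (0.76, adjusted p = 0.0451), while its brighter one was at -0.24 (adjusted p = 0.297). Of the 8 hepatocyte markers, 3 were not well above background on any array, and Ttr, which the choroid plexus list shares, made up 91.8% to 93.4% of the summed level of the list. Replicate 3 of 3M, the array lowest for C3, also had the lowest summed level of choroid plexus markers, 344277 against 440933 to 489599 on the other 3M arrays. Replicate 1 of 3M, the array highest for most of the complement genes in 3M, had the highest summed levels of macrophage markers (6420 against 4431 to 4702) and of meningeal markers (83712 against 67846 to 69638) in its group. Whether tissue carried along at dissection had a part in these values was not tested.

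**Figure D5:**
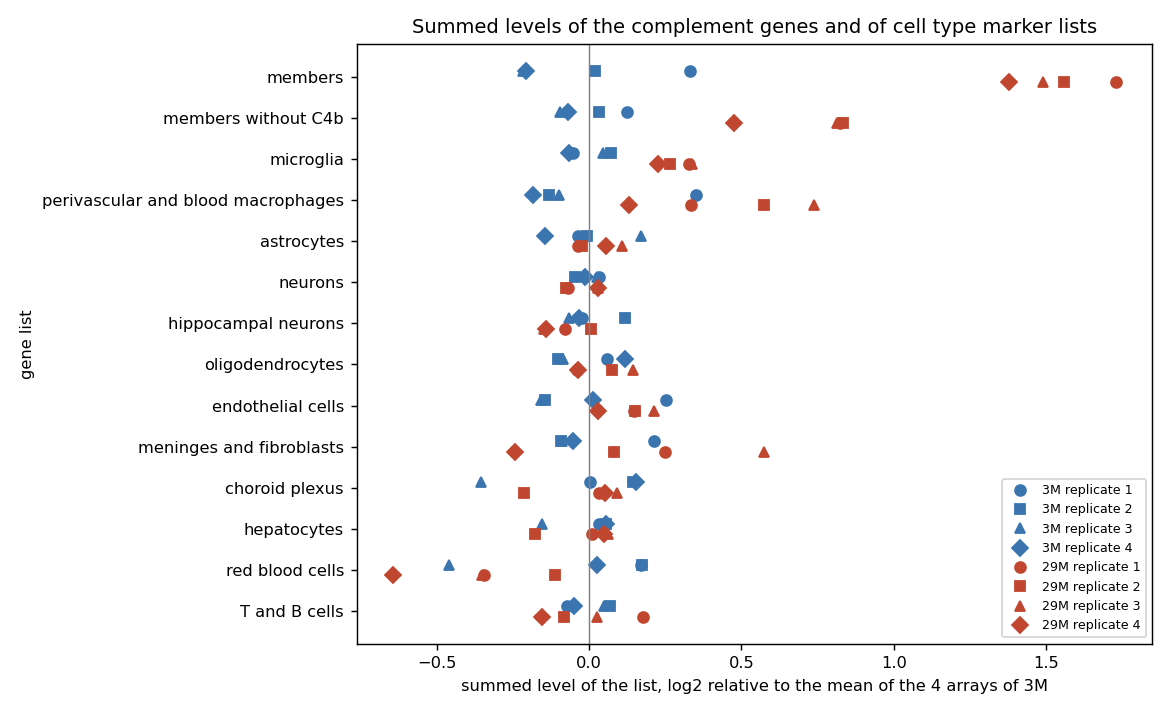
Summed level of the complement genes, with and without C4b, and of each marker list on each array, as log2 relative to the mean of the 4 arrays of 3M, with 3M in blue and 29M in red. The complement genes and the microglial markers are separate between the groups, with a log2 ratio of means of 1.54 for the complement genes (0.74 without C4b, which carries much of their sum) and 0.29 for microglia, and the other lists overlap.

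The genes lie in 4 places of the genome in the RefSeq order, the C1q trio on chromosome 4, C1ra with C1s1 on chromosome 6, and C2 with C4b and, apart from them, C3 on chromosome 17. Neighbours were counted among protein-coding genes with a probe, 3 on each side and those between the members. Of 30 such neighbours 2 rose and 0 fell, where 1.58% and 0.689% of all genes did. These 2 were C1s2 and Cyp21a1, the steroid hydroxylase gene next to C4b in that order (0.71, SE 0.08, adjusted p = 0.00499). The neighbours ranged from -0.84 (Dxo, adjusted p = 0.171) to 0.91 (Cfb, adjusted p = 0.125).

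Genes whose values ran most like those of the members over the 8 arrays were taken from 15912 genes with a probe well above background throughout. Those closest to C4b were Ip6k3, Hvcn1 and Scimp, with Pearson r from 0.989 to 0.990 and log2 changes of 0.91, 0.73 and 0.63. Those closest to C3 were S100a4 (r = 0.995), Vim (r = 0.992) and S100b (r = 0.990), with changes of 1.30, 0.98 and 0.33, the last of them not called. Those closest to the mean of the C1q genes were Cst7 (r = 0.993, change 2.72), Tbx4 (r = 0.987, change 0.49) and Itgax (r = 0.985, change 1.96). Such an r also contains the difference between the groups. With each value taken as its deviation from the group mean, the closest genes were others: Usp18, H2-Bl and Ccdc141 for C4b (r from 0.956 to 0.990), Maats1, Daw1 and Dennd2d for C3 (r from 0.984 to 0.994) and Il2rg, Mlec and Cenpj for the C1q genes (r = 0.974 for each). Of these 9, Usp18, an interferon-induced gene, was called (1.31, adjusted p = 0.0198). The highest of 15912 values of r over 8 arrays can be high by chance, and this was not tested. For C3 the deviation of replicate 3 of 3M was -1.15, and those of the other arrays ran from -0.17 to 0.50.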

How the data were processed

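RNA of 8 hippocampal samples (groups and replicate numbers from the sample titles) was measured on Agilent 1-colour arrays. For each array the authors deposited linear spot intensities, extracted with Agilent's Feature Extraction software per the file headers and not normalized between arrays. The columns of the deposited series table of intensities equalled the mean local background of arrays (8 of 8, tolerance 0.001), 7 of them of another sample, so that table was not used as expression. The software version, scanner and design that the headers name differ from the study's methods, and the headers were followed.

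Control spots and outlier spots (127 to 190 per array) were left out. Median spot intensities were transformed by variance stabilising normalization, as in the study's methods, in an implementation made here (R 4.3.3; trimming quantile 0.9, 7 iterations), and spots of a probe were averaged. The mean spot intensity was not analysed here. In limma 3.58.1 a term for age was fitted to the 39408 probes with at least 3 usable arrays per group, followed by eBayes and Benjamini-Hochberg adjustment. No filter on dim probes was applied, and a change of a dim probe is understated on this scale. The steps were tested on simulated data. The number of arrays limits the precision.

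Probes were named through RefSeq accessions of GRCm38.p6 (26055 of 39429). The array was designed on build mm9, so only promoter windows carry coordinates. Where a gene had several probes, the brightest on average stands for it. A summed level adds the normalized values of a list on the linear scale. Named were all members, called genes of the other complement lists and marker lists, Cr1l, Gfap and Aif1, and the 3 genes most alike by Pearson r. Cyp21a1, Dxo and the complement genes called without replicate 1 of 3M were named after their values were seen. The members and lists were chosen with earlier results of these data known. Motif searches and plots were made in Python 3.11.15. Alternatives were other normalizations, other probe rules, slide or replicate number as a block, another prior, a stricter adjusted p and each array left out.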

Additional observations from a re-analysis of the deposited data

Results flagged for a closer look

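Samples far from the others of their group of 4 were looked for in 90 groups of values with Dixon's ratio of the gap to the range against its 95% critical value, and 6 were found where chance gives 4.5. For C3 probe A_51_P110301 in 3M the ratio was 0.845, with replicate 3 at 9.08 and the others from 10.47 to 10.73. For Itgax in 29M it was 0.898, with replicate 4 at 8.48 and the others from 9.49 to 9.60. For Tyrobp, the microglial signalling adaptor, in 3M it was 0.862, with replicate 1 at 13.53 and the others from 13.02 to 13.09. For the summed meningeal and fibroblast markers in 3M it was 0.887, with replicate 1 at 83712 and the others from 67846 to 69638. For the summed macrophage markers in 3M it was 0.864, again with replicate 1 highest. For the summed hepatocyte markers in 3M it was 0.885, with replicate 3 at 298573 and the others from 340368 to 345799. Ttr, also a choroid plexus marker, made up 91.8% to 93.4% of that sum over the 8 arrays, and on its own it read 274517 on replicate 3 and 317378 to 318996 on the other 3M arrays.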

How the results depend on the processing

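Over 19 alternatives, 8 of which left out 1 array each, C1qa, C3 and C4b kept their calls in all. The calls of C1qb, C2, C1ra and C1s1 were lost in 8, 9, 10 and 10 of them, C1qc gained one in 3, and no gene changed direction. Member genes called higher numbered 3 with the replicate number as a block, 3 at an adjusted p under 0.05 and 3 to 7 without 1 array (3 in 5 of the 8 cases). Member probes called higher numbered 5 under both of those settings and 5 to 9 without 1 array. Over all probes, 266 were called higher and 145 lower with the replicate block, 308 and 179 at an adjusted p under 0.05, and 266 to 823 and 135 to 640 without 1 array, with the highest counts without replicate 1 of 3M. The replicate numbers are not known to pair the samples. Deviations of same-numbered arrays correlated with r = -0.24, 0.21, -0.23 and 0.07, and arrays of different numbers were not compared in this way. Called complement genes outside the members numbered 1 with log2 processed signals minus the 75th percentile and 2 to 8 without 1 array, and called markers 4 to 12 without 1 array, against 8 with all arrays. The difference C4b minus C3 (-0.024) was 0.022 with normexp and quantile normalization, 0.56 with the mean of all probes of a gene and -0.28 to 0.24 without 1 array. The cause of these shifts was not tested, and fits without an array rest on fewer samples. With 4 arrays per group, calls near the thresholds depend on single arrays.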
